A study of Rattus norvegicus with 80 samples.

Results

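Il24, Fosl1, Inhba, Areg, Ereg and Hbegf are 6 genes tied to the early response of injured epithelium, and they were followed here in rat lung after a single instillation of fibres. They were taken by symbol and are 6 of the 15924 genes that the array probes name. The genes had been picked with earlier results of these arrays known, so their day 1 values and the fall-off after day 1 are given as a description with no test. Each of the 6 was read by 1 probe.

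The study instilled suspensions of 4 materials into the trachea of seven-week-old male Sprague-Dawley rats (Crl:CD[SD]). The materials were MWCNT (multi-walled carbon nanotubes) and 3 types of cellulose nanofibrils labelled CNF1, CNF2 and CNF3. For every material there were a vehicle array ("Control for" that material, distilled water with preservatives) and arrays of 0.5 mg/kg, 1.0 mg/kg and 2.0 mg/kg, on days 1, 3, 7, 30 and 90. That makes 80 arrays in 80 groups of 1 array each, all from saline-perfused right lung, with no lung that received nothing. The extraction protocol names 4 rats per group and day, while the sample descriptions carry the replicate number 4 on 73 arrays and 3 on 7. Neither says whether an array holds RNA of 1 rat or a pool. The protocol names a single dose of 1 mg/kg and suspensions at 3 strengths in mg/mL, so the doses here are those of the sample labels. With 1 array a group, repeats come from the 4 materials in the tests of a dose effect and of the vehicle arrays. In the tests of dose slopes each material has its own line on each day, and the error is the scatter about these lines. Any p-value measures such a spread between arrays, which may be partly technical.

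Interleukin 24 (Il24) is a cytokine of the interleukin 20 group that signals through receptor pairs found mainly on epithelial cells. Fosl1 encodes FRA-1, a partner of Jun proteins in the AP-1 transcription factor, which is switched on by growth factor and stress signals. Inhba encodes the beta A chain whose dimer is activin A, a secreted factor of the TGF-beta family. Areg (amphiregulin), Ereg (epiregulin) and Hbegf (heparin-binding EGF-like growth factor) encode membrane-bound ligands that are cut free by sheddases and act on the EGF receptor and its relatives, which drive migration and division of epithelial cells at a wound.

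The stretches around the gene starts are shown for the cytokine, for the EGF receptor ligand that stayed closest to it, and for the activin chain, because Il24 and Areg had the closest courses among the 6 genes and Inhba had the widest spread over the 4 materials at 2.0 mg/kg on day 3 (SD 1.83). RefSeq (build GRCr8) promoter windows of 300 bases, 250 before the gene start and 50 after it, were found for 5 of the 6 genes, all but Ereg. The AP-1 motif TGANTCA reads the same on both strands and was in 0 of the 5 windows, against 7.33% of 33469 windows of that length. The longer form TGANNTCA, also the same on both strands, was searched after the sequences had been seen. It was in 2 of the 5 windows, against 15.3% of all windows, and 431 windows held both motifs. Areg has TGACGTCA with its first letter 91 bases before the start, and Inhba has TGATGTCA 133 bases before the start and TGACCTCA 8 bases after it. Il24 lies at chr13:44910711-44911010, Areg at chr14:17265592-17265891 and Inhba at chr17:53804459-53804758, all on the minus strand. Capitals mark TGANNTCA, and a match is a run of letters, not a binding site.
Il24: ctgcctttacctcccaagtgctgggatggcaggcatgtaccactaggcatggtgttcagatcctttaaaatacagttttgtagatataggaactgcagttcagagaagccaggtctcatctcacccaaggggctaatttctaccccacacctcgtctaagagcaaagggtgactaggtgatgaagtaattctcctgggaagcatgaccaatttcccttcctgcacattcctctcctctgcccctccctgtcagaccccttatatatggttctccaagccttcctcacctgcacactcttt
Areg: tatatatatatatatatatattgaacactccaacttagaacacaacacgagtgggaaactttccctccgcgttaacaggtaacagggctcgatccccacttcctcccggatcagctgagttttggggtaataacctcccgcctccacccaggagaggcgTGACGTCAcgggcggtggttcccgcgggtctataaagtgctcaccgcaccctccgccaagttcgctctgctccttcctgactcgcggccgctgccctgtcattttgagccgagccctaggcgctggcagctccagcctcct
Inhba: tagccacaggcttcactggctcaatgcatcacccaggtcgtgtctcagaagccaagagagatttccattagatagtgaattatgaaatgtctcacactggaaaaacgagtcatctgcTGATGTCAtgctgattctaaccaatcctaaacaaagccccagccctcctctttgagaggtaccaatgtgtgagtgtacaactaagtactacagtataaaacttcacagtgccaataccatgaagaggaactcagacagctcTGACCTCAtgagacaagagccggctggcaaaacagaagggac

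The values are the authors' log2 values, centred per probe, so 0 is about a probe's middle value over the 80 arrays. They give differences between arrays and no level that could be compared between genes. Background counts for the whole table are given where a count of the 6 genes needs one.

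Il24 had the largest mean difference of all 15924 genes on day 1. The 2.0 mg/kg arrays were on average 5.92 above their own vehicle arrays (SD 0.41, n = 4 materials), a 60.6-fold difference. On the MWCNT arrays of day 1, Il24 read -1.03 with vehicle and then, with rising dose, 2.60, 3.67 and 5.21. On the CNF1 arrays it read -0.59, 2.70, 4.14 and 5.20 at the same doses. Every exposed array of these materials lay above every vehicle array, and the lowest dose was already more than halfway to the highest. The CNF2 arrays read -0.26, 3.67, 3.48 and 5.13, and the CNF3 arrays -0.91, 4.00, 4.33 and 5.35. CNF2 is the one material whose 1.0 mg/kg array was not above its 0.5 mg/kg array. The difference from the own vehicle array ranked Il24 first for MWCNT, CNF1 and CNF3 and at place 3 for CNF2. After quantile normalization of the arrays the mean difference was 4.44 in place of 5.92.

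**Figure D1:**
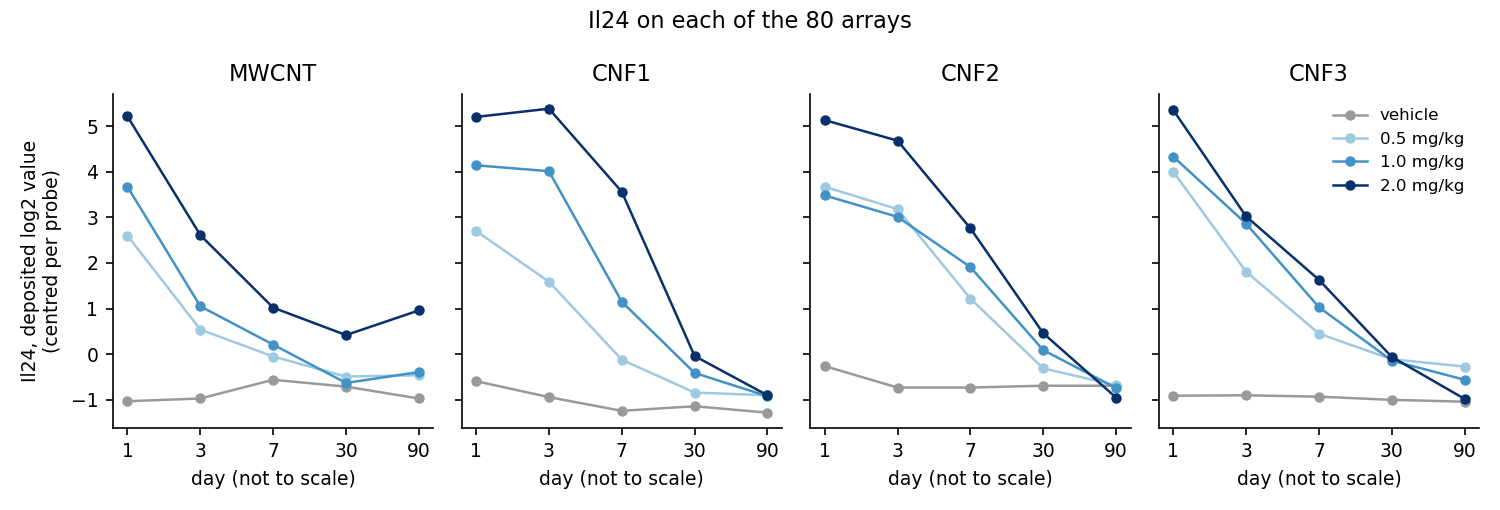
Deposited log2 value of Il24 (vertical axis) on each of the 80 arrays by day (horizontal axis, not to scale), 1 panel per material, 1 line per dose and 1 array per point. The exposed arrays stand above the grey vehicle line on days 1, 3 and 7. On day 30 they are nearer to it, with the 2.0 mg/kg arrays still 0.94 to 1.15 above. On day 90 the 2.0 mg/kg arrays of the CNF materials differ from it by -0.26 to 0.37, while that of MWCNT lies 1.93 above it.

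After day 1, Il24 followed a different time course with different materials. At 2.0 mg/kg on day 3 it read 2.61 for MWCNT, 5.38 for CNF1, 4.68 for CNF2 and 3.02 for CNF3. Measured against the own vehicle array, this was 2.66 less than on day 1 for MWCNT and 2.34 less for CNF3, but 0.53 more for CNF1 and 0.01 more for CNF2. For CNF1 and CNF2 the difference was as high on day 3 as on day 1, so day 1 was not the single high point that the acute label implies. On day 7 the 2.0 mg/kg arrays read 1.02 (MWCNT), 3.56 (CNF1), 2.76 (CNF2) and 1.63 (CNF3), against vehicle arrays of -0.56, -1.24, -0.73 and -0.93 in the same order. All 12 exposed arrays stood above all 4 vehicle arrays on days 1, 3 and 7, as did 9.86%, 8.79% and 2.69% of all genes. On day 30 the 2.0 mg/kg arrays lay 0.94 to 1.15 above their vehicle arrays. On day 90 the 2.0 mg/kg difference was 1.93 for MWCNT and 0.37, -0.26 and 0.06 for CNF1, CNF2 and CNF3.

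Fosl1, the FRA-1 subunit of AP-1, had the next largest day 1 difference of the 6 genes. The MWCNT arrays of day 1 read -1.17 with vehicle and 0.24, 0.93 and 1.83 with rising dose. The CNF1 arrays read -0.62, 0.54, 1.71 and 1.99, the CNF2 arrays -1.02, 0.50, 0.30 and 1.62, and the CNF3 arrays -1.25, 1.01, 1.58 and 2.56. No exposed array overlapped a vehicle array, and the highest dose gave the highest value with every material. The mean 2.0 mg/kg difference was 3.02 (SD 0.56, n = 4), an 8.09-fold difference and rank 19 of all genes. It was 2.48 on day 3, 1.48 on day 7, 0.52 on day 30 and 0.50 on day 90. As for Il24, CNF1 gave its highest Fosl1 difference on day 3, at 3.87. On days 3 and 7 all 12 exposed arrays were again above all 4 vehicle arrays. On day 90 the 2.0 mg/kg difference was 1.87 for MWCNT, and -0.89 to 0.78 over the 3 CNF materials.

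**Figure D2:**
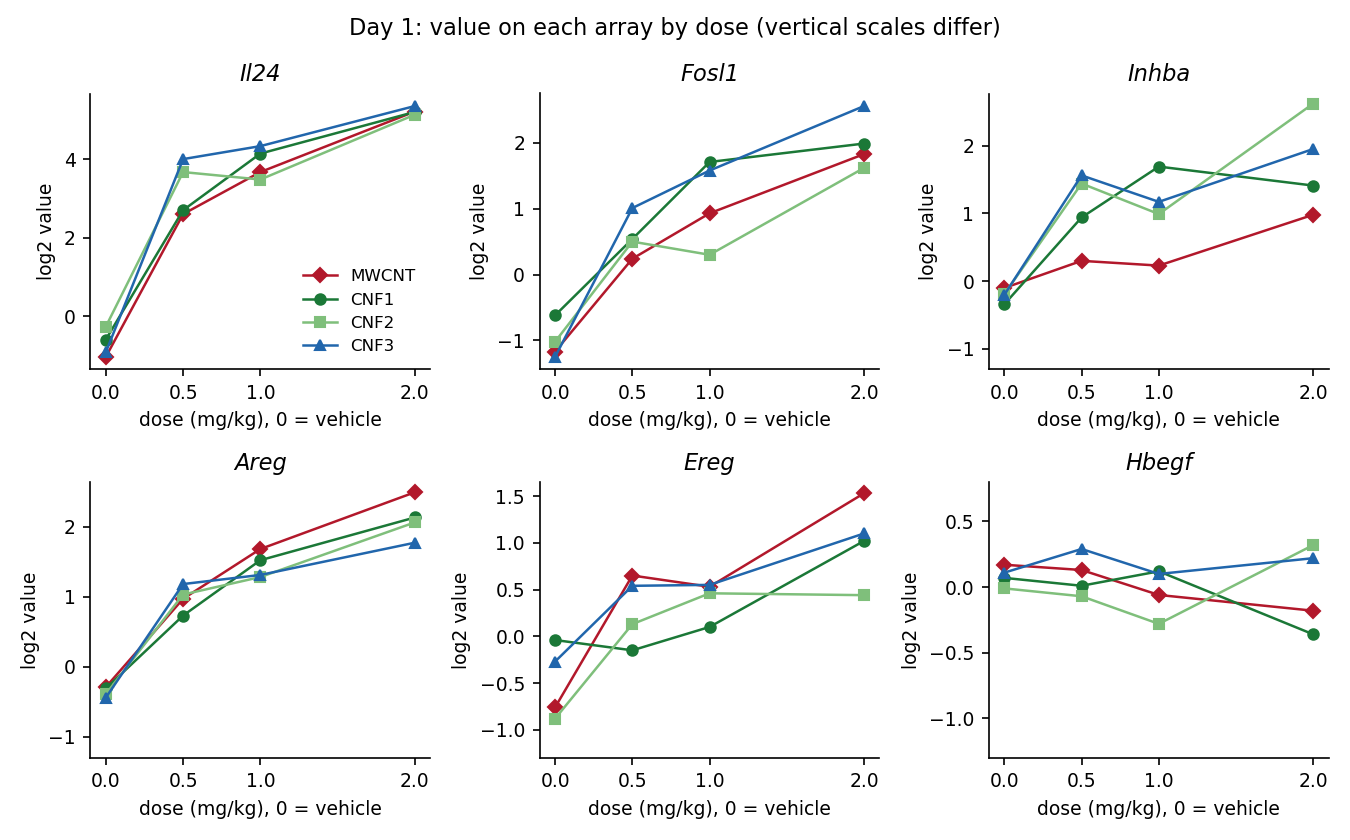
Deposited log2 value (vertical axes, which differ in scale) on the 16 arrays of day 1 by dose in mg/kg (horizontal axis, 0 is vehicle), 1 panel per gene, 1 line per material and 1 array per point. Areg climbs at each dose step with all 4 materials, Il24 and Fosl1 do so with 3 (not CNF2), Inhba and Ereg take uneven steps, and Hbegf stays between -0.36 and 0.32.

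Inhba had the widest spread between materials of the 6 genes on days 1 and 3. On day 1 the 2.0 mg/kg arrays read 0.98 for MWCNT, 1.41 for CNF1, 2.62 for CNF2 and 1.95 for CNF3, against vehicle arrays of -0.10, -0.34, -0.19 and -0.20 in the same order. All 12 exposed arrays were above all 4 vehicle arrays, the lowest of them being MWCNT at 1.0 mg/kg, at 0.23. The mean 2.0 mg/kg difference was 1.95 (SD 0.73, n = 4), a 3.87-fold difference. With CNF1 and CNF2 it then went higher, so that on day 3 their 2.0 mg/kg arrays read 3.64 and 3.37, while MWCNT read 0.41 and CNF3 0.83. These CNF1 and CNF2 differences, 4.06 and 3.78, were the largest Inhba differences of the series. With MWCNT, Inhba was 0.03 below the vehicle array on day 7 and 0.27 below it on day 30. In none of the 4 materials did the day 1 values go up at each dose step.

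Areg had the least spread between materials of the 6 genes on day 1. The day 1 arrays of 2.0 mg/kg read 2.49 (MWCNT), 2.13 (CNF1), 2.06 (CNF2) and 1.77 (CNF3), against vehicle arrays of -0.29, -0.31, -0.39 and -0.44. The groups did not overlap, and the values went up at each dose step with all 4 materials, which 0.32% of all genes did. The mean 2.0 mg/kg difference was 2.47 (SD 0.24, n = 4), a 5.55-fold difference. It was lower again within the first week. The mean 2.0 mg/kg difference was 1.42 on day 3 (SD 0.90) and 0.71 on day 7. The materials were apart on day 3, with 2.40 for CNF1, 1.66 for CNF2, 1.41 for MWCNT and 0.23 for CNF3. For CNF1 this was close to the 2.44 of day 1. On day 30, 10 of 12 exposed arrays were below their own vehicle array, and 9 of 12 were on day 90. The MWCNT array of 2.0 mg/kg was among those above on both days, by 0.12 and 0.84.

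Ereg lies beside Areg on chromosome 14 of GRCr8, with 0 annotated genes between them. Its day 1 arrays of 2.0 mg/kg read 1.53 (MWCNT), 1.02 (CNF1), 0.44 (CNF2) and 1.10 (CNF3), against vehicle arrays of -0.76, -0.04, -0.88 and -0.27. The mean difference was 1.51 (SD 0.54, n = 4), a 2.85-fold difference. Of the 12 exposed arrays, 11 were above their own vehicle array, and CNF1 at 0.5 mg/kg was 0.11 below it. The mean 2.0 mg/kg difference was 0.78 on day 3, 0.26 on day 7, -0.07 on day 30 and 0.33 on day 90. The exposed arrays above their own vehicle array numbered 11 of 12 on day 3, 8 on day 7, 7 on day 30 and again 11 on day 90. With MWCNT all 15 exposed arrays of the 5 days were above their vehicle array. With CNF3 all were except that of 0.5 mg/kg on day 3, at -0.05. The share of all genes that did so was not counted.

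Hbegf did not share the high day 1 values of the other 5 genes. On day 1 its 2.0 mg/kg arrays read -0.18 (MWCNT), -0.36 (CNF1), 0.32 (CNF2) and 0.22 (CNF3), against vehicle arrays of 0.17, 0.07, -0.01 and 0.11. The exposed arrays fell on both sides of the vehicle arrays, 4 of 12 above and 8 below, and the mean 2.0 mg/kg difference was -0.09 (SD 0.37, n = 4). Without the CNF1 array of 2.0 mg/kg on day 1 that mean is 0.04, and without the CNF2 array it is -0.25. After day 1 it was lower than in the vehicle lungs. On day 3 the 2.0 mg/kg arrays read -0.11 (MWCNT), -0.59 (CNF1), -0.73 (CNF2) and -0.39 (CNF3), against vehicle arrays of 0.24, 0.31, 0.25 and 0.09. All 12 exposed arrays were below their own vehicle array on day 3 and on day 30, as were 7.1% and 2.21% of all genes. Over the 4 later days 45 of 48 exposed arrays were below, and the mean 2.0 mg/kg difference was -0.68 on day 3, -0.54 on day 7, -0.58 on day 30 and -0.37 on day 90. The SD of Hbegf over the 20 vehicle arrays was 0.13. The array medians of technical control spots averaged -0.24 ± 0.72 at 2.0 mg/kg and -0.60 ± 0.56 with vehicle (SD, n = 20 arrays each). The array medians of all rat probes averaged -0.06 ± 0.07 at 2.0 mg/kg and -0.05 ± 0.04 with vehicle. Over 13 alternatives, control-spot factors among them, the Hbegf difference on day 1 minus the mean of later days ran from 0.33 to 0.60. Whether the control spots play a part in the Hbegf differences was not tested further.

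**Figure D3:**
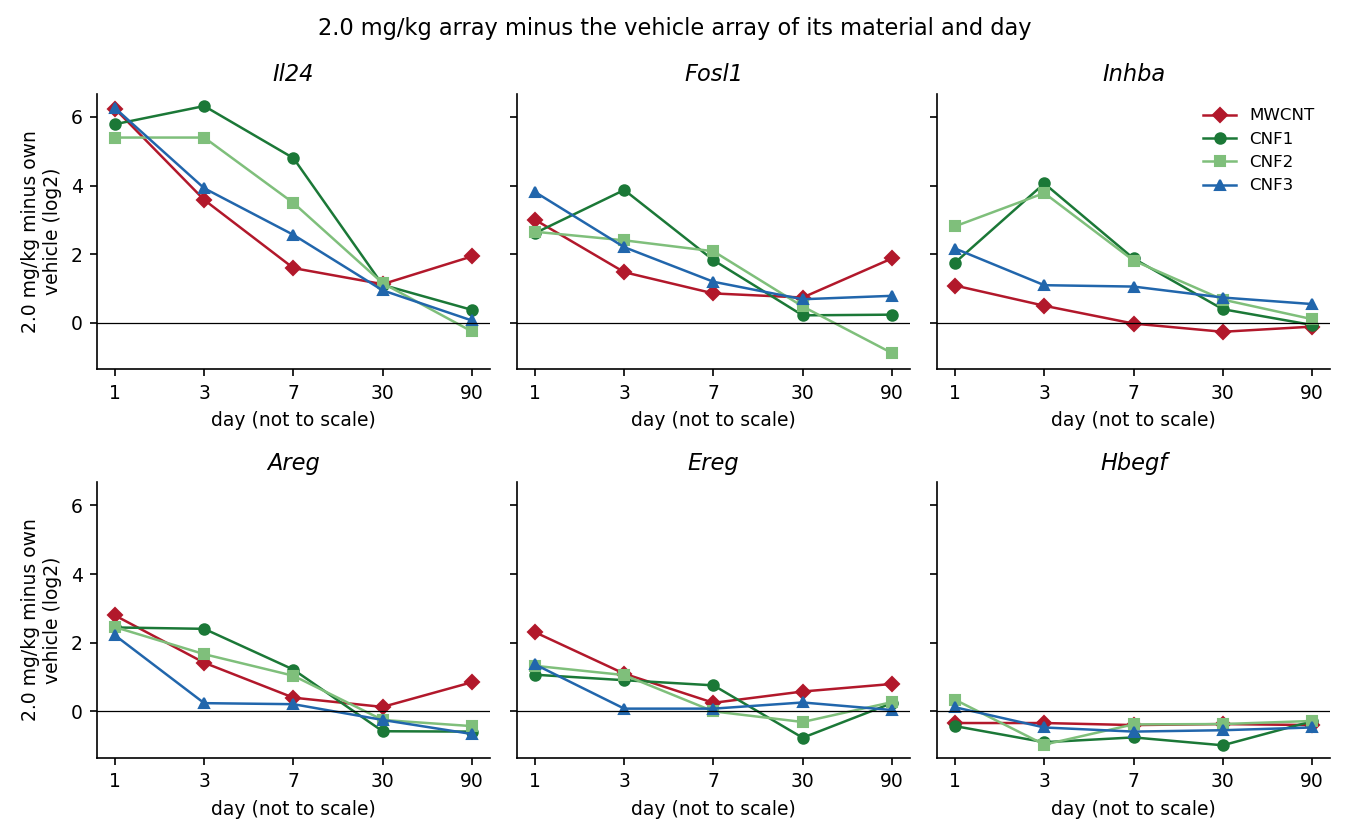
Log2 difference of the 2.0 mg/kg array from the vehicle array of its own material and day (vertical axis, 1 scale for all panels) by day (horizontal axis, not to scale), 1 panel per gene, 1 line per material and 1 pair of arrays per point. Il24 starts between 5.40 and 6.26 in all materials, Inhba peaks on day 3 with CNF1 and CNF2, and Hbegf lies below 0 on every later day.

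Day 1 was compared with the mean of the 4 later days over the materials, again as a description for the 6 genes. The 2.0 mg/kg difference was larger on day 1 by 3.54 ± 0.42 for Il24, 2.06 ± 0.25 for Areg, 1.77 ± 0.30 for Fosl1, 1.18 ± 0.25 for Ereg, 0.95 ± 0.37 for Inhba and 0.46 ± 0.15 for Hbegf (limma estimate ± SE). For Hbegf the positive sign comes from lower later values and not from a high day 1. For Inhba the mean 2.0 mg/kg difference was higher on day 3 (2.36) than on day 1 (1.95). It was 1.18 on day 7, 0.38 on day 30 and 0.11 on day 90, so the positive sign comes from days 7, 30 and 90. Over all genes, limma with Benjamini-Hochberg adjustment called 4.3% higher and 5.51% lower on day 1 than later, 685 and 877 genes. After quantile normalization those counts were 77 and 633.

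The vehicle arrays alone were also compared between day 1 and the later days, since a rat given only vehicle was also instilled. None of the 6 genes was called by limma after Benjamini-Hochberg adjustment, against 3.73% of all genes. The closest was Hbegf, at -0.15 ± 0.05 on day 1 relative to later days (limma estimate ± SE, adjusted p = 0.129, unadjusted p = 0.00961). Fosl1 came next at -0.34 ± 0.14 (adjusted p = 0.244). Il24 was 0.21 ± 0.11 with a 95% interval of -0.02 to 0.44 (adjusted p = 0.366), a small span beside the 5.92 between 2.0 mg/kg and vehicle. These 2 genes, Hbegf and Fosl1, were the only ones of the 6 with an unadjusted p under 0.05.

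Whether MWCNT and the CNF materials differed was asked with the slope of the value on dose, in log2 per mg/kg. The slope is that of a straight line, so a bend in the dose response, as seen for Il24 on day 1, adds to its error. On day 1 the slope of Il24 was 0.30 ± 0.67 higher for MWCNT than for the mean of the 3 CNF materials (SE, 95% interval -1.05 to 1.64, adjusted p = 1.0 by limma). The slope difference of Inhba was -0.46 (95% interval -1.12 to 0.20), that of Ereg 0.43 (-0.10 to 0.95) and that of Areg 0.25 (-0.26 to 0.76). None of the 6 genes was called, nor was any gene of the 15924 (0%), and 0 of the 6 had an unadjusted p under 0.05. The 3 CNF materials were compared with each other on day 1 in the same way, 18 differences in all. None was called, the estimates ran from -0.56 to 0.37, and the widest 95% interval, that of Il24, reached -2.01. An equal dose response is not shown by these intervals.

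On days 3 and 7 the Inhba slope was lower for MWCNT than for the mean of the 3 CNF materials by 0.96 ± 0.23 log2 per mg/kg (95% interval -1.43 to -0.49). Its unadjusted p was 0.000155 and its limma adjusted p 0.151, so it was not called, and 8 genes in all were (0.0502%). The CNF materials were not alike. On day 3 the Inhba slope was 0.21 for MWCNT and 0.37 for CNF3, against 1.99 for CNF1 and 1.63 for CNF2. On day 7 it was -0.07 for MWCNT, 0.89 for CNF1, 0.83 for CNF2 and 0.49 for CNF3. Without the CNF1 array of 2.0 mg/kg on day 3 the limma adjusted p of the Inhba slope difference was 0.0238. Without the CNF3 array of 2.0 mg/kg on day 3 it was 0.04, and without the CNF2 array of 0.5 mg/kg on day 3 it was 0.0253. Of the 80 arrays left out in turn, only these 3 brought a call for Inhba. The Fosl1 slope differed by -0.58 (95% interval -1.04 to -0.12, adjusted p = 0.688) and that of Il24 by -0.83 (95% interval -1.79 to 0.12, adjusted p = 1.0). When the 4 vehicle arrays of a day served as 1 common control, 4 of the 6 genes were called and 3147 of all genes. This fit drops the pairing with the own vehicle array, so an offset of a whole material on a day can enter its slope. In that fit Inhba differed by -1.06 (limma adjusted p = 1.53e-07) and Il24 by -1.07 (adjusted p = 0.00413). Fosl1 differed by -0.51 (adjusted p = 0.00623) and Hbegf by 0.23 (adjusted p = 0.0165). Of 11 neutrophil markers, 1 had a higher slope for MWCNT on those days, and the list's median slope difference was 0.50, against 0.00 for all genes.

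**Figure D4:**
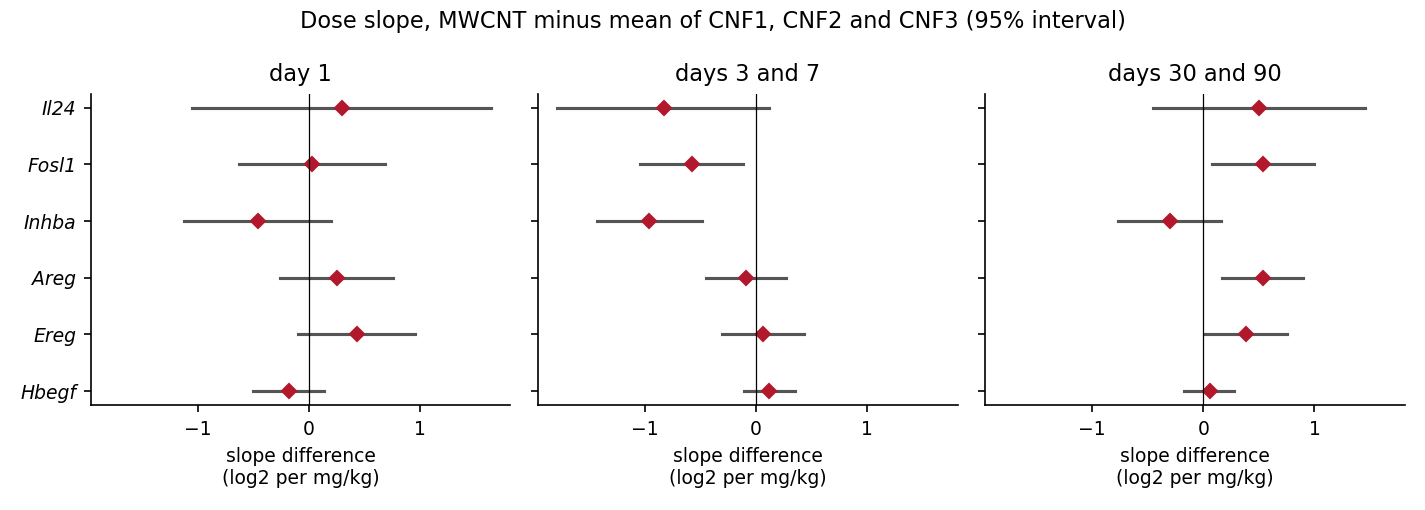
Difference in dose slope (horizontal axis, log2 per mg/kg), MWCNT minus the mean of CNF1, CNF2 and CNF3, for each gene (rows) in 3 periods (panels). Diamonds are limma estimates and lines their 95% intervals. On days 3 and 7 Inhba and Fosl1 lie left of 0, and on days 30 and 90 Areg, Fosl1 and Ereg lie right of it, with no adjusted p under 0.05.

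On days 30 and 90 the differences had the other sign for 2 of those genes. The slope was higher for MWCNT by 0.54 ± 0.18 for Areg (adjusted p = 0.358), 0.54 ± 0.23 for Fosl1 (adjusted p = 0.738), 0.50 ± 0.47 for Il24 (adjusted p = 1.0) and 0.38 ± 0.18 for Ereg (adjusted p = 0.946). None was called by limma, against 0.364% of all genes, and 3 of the 6 had an unadjusted p under 0.05. With the common control limma called Fosl1 (0.44, adjusted p = 0.0457) and Ereg (0.40, adjusted p = 0.0193), among 825 of all genes. Of 11 neutrophil markers, 3 had a higher slope for MWCNT in this period, and the list's median slope difference was 0.57. Their part in the late MWCNT values was not tested.

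The other genes of the same pathways were read on day 1, where the test over the 4 materials called 20.1% of all genes higher and 18% lower at 2.0 mg/kg. These lists, like the 6 genes, were drawn up with earlier results known. Quantile normalization shifts the split of calls, with 52.8% of calls higher in the deposited values and 35.7% after it. The median difference was 0.08 over all genes.

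Among the other ligands of the EGF receptor family, 1 of 5 measured genes rose and 1 fell. Egf, epidermal growth factor itself, fell by 0.63 (SE 0.12, limma adjusted p = 6.65e-05). Nrg1, a ligand of ErbB3 and ErbB4, rose by 0.34 but lost its call in 5 of 9 alternatives. Tgfa, transforming growth factor alpha, was at -0.01 and Btc, betacellulin, at 0.60, and neither was called. Among 6 receptors and sheddases, Erbb3 rose by 1.32 ± 0.23 (adjusted p = 1.09e-05) and the sheddase gene Adam10 by 0.57 ± 0.15 (adjusted p = 0.00204). Erbb2 fell by 0.56, with the call lost in 6 of 9 alternatives. Egfr was at -0.03 ± 0.07 and Adam17, the main sheddase of these ligands, at -0.05 ± 0.09, neither called. Of 9 feedback inhibitors of the pathway, Lrig1 (0.36) and Dusp6 (0.26) rose and 0 fell, both calls being lost in 5 of 9 alternatives. The list's median was 0.05.

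Of 8 other AP-1 and ATF subunits, 6 rose and 0 fell, with a median of 0.73. Atf3, a stress-induced factor, rose by 1.16 ± 0.19 (adjusted p = 3.43e-06), Junb by 0.89 ± 0.14 (adjusted p = 3.69e-06) and Batf by 0.88 ± 0.18 (adjusted p = 9.45e-05). Maff rose by 0.78, Fos by 0.67 and Fosl2, the nearest relative of Fosl1, by 0.22. Jun, the classical partner, was at 0.06 and Jund at 0.34, neither called. The call was lost in 6 of 9 alternatives for Fosl2 and in 3 of 9 for Fos, and the lowest count of rising genes was 3. On day 90 the mean 2.0 mg/kg difference was 0.90 for Atf3, 1.13 for Batf, 0.44 for Fos, 0.29 for Junb, -0.09 for Fosl2 and -0.24 for Maff, beside 0.50 for Fosl1. Maff (0.79, adjusted p = 0.000831) and Fosl2 (0.33, adjusted p = 0.024) were called as larger on day 1 than later.

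In the activin pathway 2 of 12 genes rose and 3 fell, with a median of 0.01. Fst encodes follistatin, which binds activin and blocks it, and it rose by 1.00 ± 0.19 (adjusted p = 4.96e-05). Its difference was larger on day 1 than later by 1.03 (limma adjusted p = 0.000892). On day 3 its mean 2.0 mg/kg difference over the 4 materials was 0.44. Acvr1b, a type I activin receptor, rose by 0.56, with the call lost in 3 of 9 alternatives. Without the CNF1 array of 2.0 mg/kg on day 1 the list had 1 rising gene in place of 2. Bambi, a decoy receptor, fell by 0.66, and so did the type II receptor Acvr2b (-0.38) and the signal carrier Smad2 (-0.40). Inhbb and Inha, the other chains that can pair with that of Inhba, were at -0.02 and 0.09 and were not called.

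The interleukin 20 group around Il24 was measured for 5 of 9 listed genes. Il10, the anti-inflammatory relative of Il24, rose by 0.78 ± 0.20 (adjusted p = 0.00162), with the call lost in 2 of 9 alternatives. Il10rb, a shared receptor chain, fell by 0.46 ± 0.09 (adjusted p = 3.54e-05). The receptor chains Il20ra (0.59 ± 0.38) and Il22ra1 (-0.29 ± 0.29), which take part in binding Il24, were not called.

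Of 13 genes linked to wounded epithelium, 6 rose and 1 fell, with a median of 0.43. Plaur, the urokinase receptor, rose by 1.66 ± 0.21 (adjusted p = 5.21e-08) and Tnfrsf12a, the receptor of TWEAK, by 1.02 ± 0.12 (adjusted p = 1.08e-08). Krt18 rose by 0.58, Ccn1 by 0.66, Ccn2 by 0.49 and Cldn4 by 0.43, while Itgb6 fell by 0.35. The call was lost in 3 of 9 alternatives for Ccn1 and in 2 of 9 for Ccn2 and for Itgb6. Cldn4, a tight junction protein, had its highest mean difference on day 7, at 1.03. Quantile normalization left 3 of the 6 rising genes called.

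**Figure D5:**
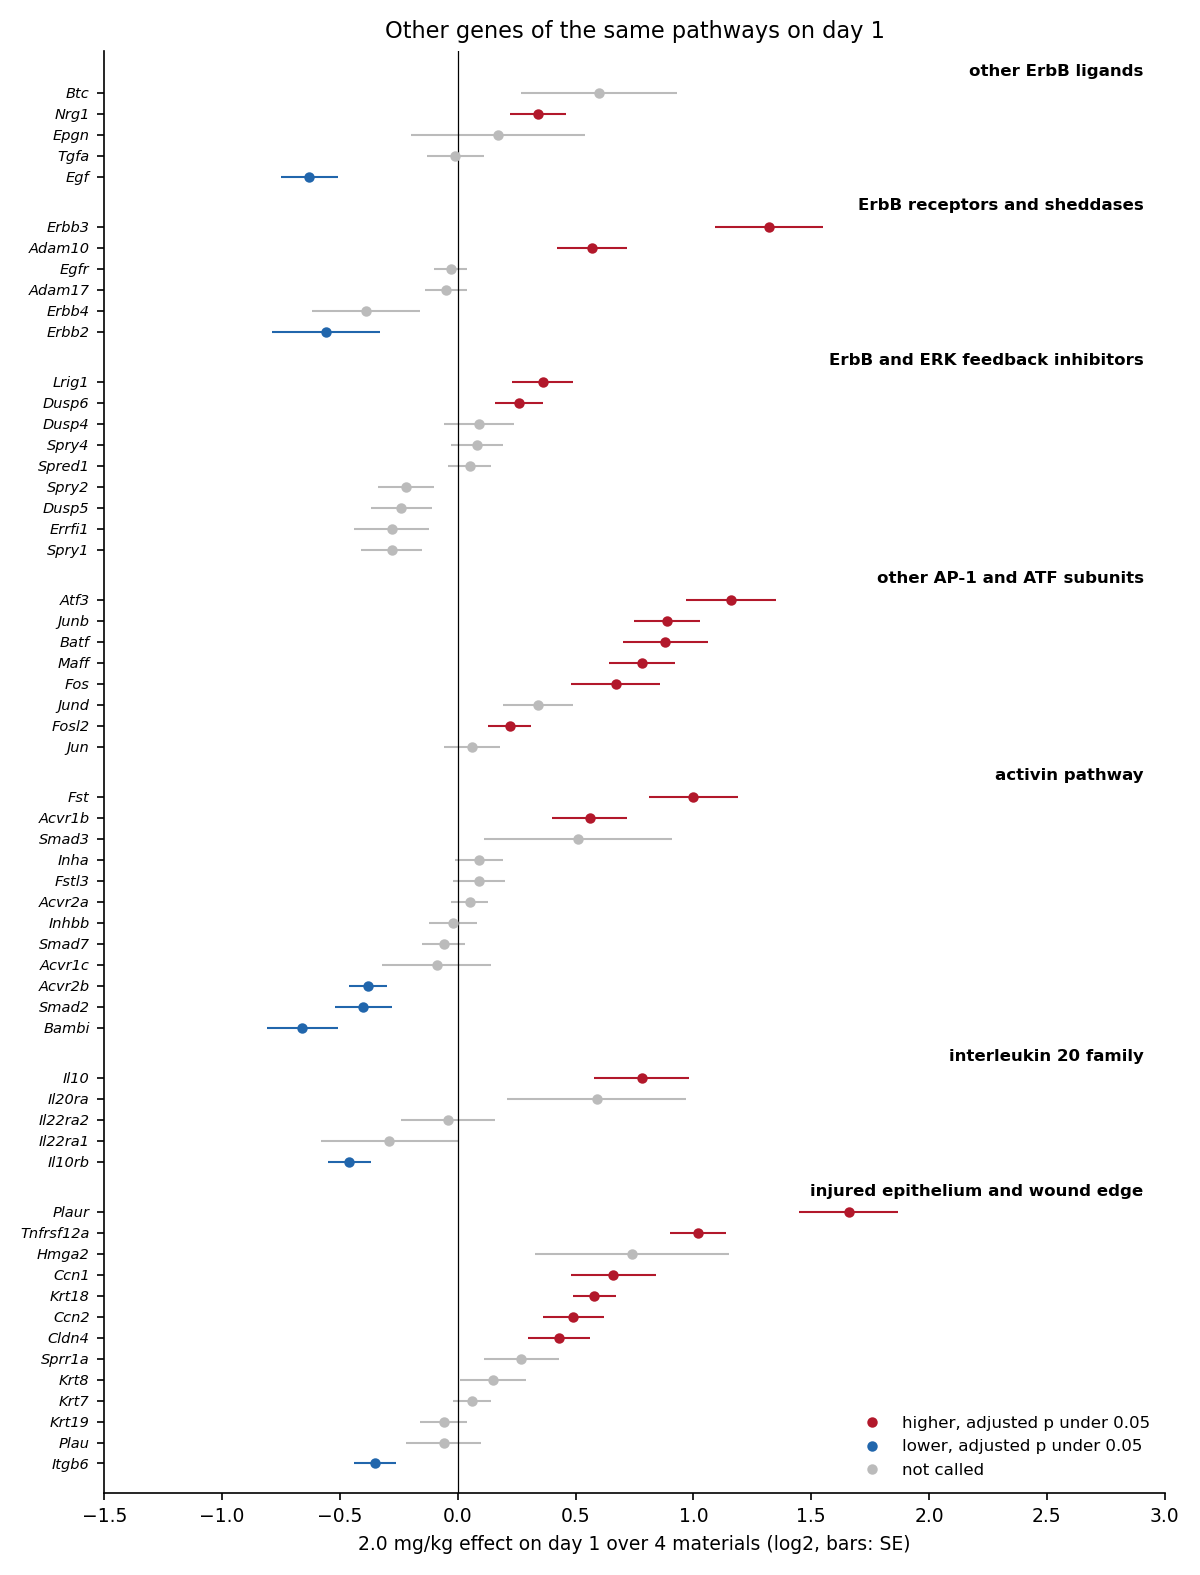
Log2 effect of 2.0 mg/kg against vehicle on day 1 over the 4 materials (horizontal axis, bars are SE from limma) for the 58 measured genes of 7 lists (rows, grouped by list). Red points were called higher and blue points lower at an adjusted p under 0.05. The AP-1 and ATF list has 6 of 8 points in red, and Plaur at 1.66 is the largest value shown.

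Markers of lung cell types moved on the same arrays. All 6 measured markers of alveolar type 1 cells fell on day 1, among them Aqp5 (-0.68) and Ager (-0.53). All 4 club cell markers fell, Cyp2f4 most (-2.19 ± 0.26, adjusted p = 6.55e-09). The mean over the type 1 list ran from -0.39 to -0.32 on the 4 arrays of 2.0 mg/kg and from 0.07 to 0.19 on the 4 vehicle arrays. For club cells it ran from -1.20 to -0.15 at 2.0 mg/kg and from 0.17 to 0.36 with vehicle. Against the later days, 0 of the 6 type 1 and 2 of the 4 club markers were called lower on day 1, as were 5.51% of all genes. The day 1 count of falling type 1 markers was 4 with the mean of the 4 slopes, and that of club markers 3 with control-spot factors. Of 11 neutrophil markers 3 rose, Lcn2 by 2.55, Cd177 by 1.40 and Fcnb by 0.78, and of 12 macrophage and monocyte markers 6 rose and 3 fell. The neutrophil count was 1 after quantile normalization and 0 with the mean of the 4 slopes, where the macrophage count of rising genes was 1. Without CNF2 the macrophage count of falling genes was 1. Of 9 markers of T and natural killer cells 1 rose, a call kept in 1 of 9 alternatives, and 4 fell, among them Gzma (-0.58) and Cd4 (-0.54), with 0 falling without CNF2, without CNF3 or without the CNF1 array of 2.0 mg/kg on day 1. In other lists 1 of 8 alveolar type 2 markers rose and 1 fell, 1 of 6 basal markers rose and 1 fell, 0 of 6 ciliated markers rose and 2 fell, 2 of 6 endothelial markers rose and 2 fell, and 0 of 6 fibroblast and muscle markers rose and 2 fell. In whole lung fewer cells of a type and less RNA per cell cannot be told apart, and the part of these cell types in the values of the 6 genes was not tested.

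The 6 genes did not all move together over the 60 differences of an exposed array from its vehicle array. Il24 correlated with Areg at r = 0.93, with Fosl1 at 0.92, with Inhba at 0.79, with Ereg at 0.55 and with Hbegf at -0.15 (Pearson). Areg and Ereg, the neighbours, correlated at 0.73. These are descriptions, since each vehicle array is shared by 3 differences and most of the range lies between early and late days. With symbols that are only identifiers passed over, the 5 other genes most like Il24 were Uck2 (r = 0.91), Ubl4a (0.90), Cenps (0.90), Chtf18 (0.89) and Nme1 (0.89). Uck2 encodes a nucleoside kinase, Nme1 a nucleotide kinase, Cenps a centromere protein and Chtf18 part of a replication clamp loader. Within the 12 differences of day 1 the correlation with Il24 was 0.56 for Uck2 and 0.82 for Nme1. With the mean of the 6 genes the closest under the same rule were Uck2 and Timp1 (0.91 each), Ubl4a and Tnfrsf12a (0.91 each) and Orc1 (0.91). Timp1, an inhibitor of matrix proteases, had a mean 2.0 mg/kg difference of 1.55 on day 1 and 0.17 on day 90, and Orc1, a replication origin protein, 2.03 and 0.27.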

How the data were processed

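Gene expression was measured on 80 single-colour Agilent arrays of rat lung, 1 per material, dose and day. The authors deposited normalized log2 values centred per probe; Agilent Feature Extraction 12.0.3.1 is named per the submitters' processing notes, and the normalization step, the log base (taken as 2) and the signal levels are not given in the sources used here. Each array has 41103 probes, of which 91 are control spots. Through the platform annotation and RefSeq names, 20932 probes gave 15924 genes, and probes of a gene were averaged. No filter on dim probes was possible.

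Tests used limma 3.58.1 in R 4.3.3 over all genes with Benjamini-Hochberg adjustment at 0.05. One model had the 20 sets of material and day as blocks and a dose effect within each day (45 residual degrees of freedom). A second had a dose slope for each set (40 residual degrees of freedom), and a further model used the 20 vehicle arrays with material as block. The script was tested on simulated data. Intervals are 95%. The 6 genes, the pathway lists and the cell type markers were chosen with earlier results of these data known. All 6 genes were named, with those list genes that passed the test and others of clear role, and the 5 genes most correlated with Il24 and with the mean of the 6. Symbols that are only identifiers, such as LOC numbers, were passed over in choosing those 5. Alternatives were quantile normalization, control-spot factors, another probe rule, other dose codings, a common control, and leaving out materials, days or, after seeing the data, single arrays. With 1 array per group, the number of arrays limits the precision.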

Additional observations from a re-analysis of the deposited data

How the results depend on the processing

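The day 1 difference of the 6 genes at 2.0 mg/kg had a median of 2.21. It was 1.83 after quantile normalization and 2.09 to 2.34 when each of the 80 arrays was left out in turn. For day 1 against later days the median was 1.48, and it was 1.08 after quantile normalization and 1.79 without day 3. Il24 ranged from 4.44 to 6.10 on day 1 over 9 alternatives and Fosl1 from 2.44 to 3.21. Hbegf ranged from -0.22 to 0.03. In the material comparison of days 3 and 7, where 0 of the 6 genes were called, 1 was called with 3 control-spot factors and 1 with dose as a rank (Inhba both times), and 4 with the 4 vehicles as a common control. Leaving out 1 array gave 0 to 1. On days 30 and 90 the common control called 2. None of the 6 genes was called in the other material comparisons or between vehicle arrays under any alternative run. The sign of some uncalled slopes changed. On day 1 the common control gave -0.15 for Il24 and -0.18 for Fosl1, and leaving out single arrays gave -0.85 to 2.14 for Il24, -0.35 to 0.70 for Fosl1 and -0.0942 to 0.89 for Areg. On days 3 and 7 Areg was 0.0739 after quantile normalization, with -0.27 to 0.0367 over single arrays, and Ereg -0.088 to 0.35. On days 30 and 90 Hbegf was -0.00201 to 0.0955. The cause of these changes was not tested. Counts over all genes moved more than 1.5 times in 33 alternative fits and less in 30. The day 1 count of 6067 fell to 3672 with slopes, and the 1562 genes of day 1 against later days ranged from 710 to 3308. The 8 genes of the material comparison on days 3 and 7 ranged from 0 to 3147, the 58 genes of days 30 and 90 from 7 to 825, and the 594 genes of the vehicle comparison from 106 to 859. On day 1 the MWCNT comparison, with 0 genes, reached 114 with the common control, and CNF1 against CNF3 reached 25. The material slopes could not be fitted without the 0.5 and 1.0 mg/kg arrays, so that alternative was not run for them. The sets of material and day were already blocks in the models, and no fit with the replicate number of the labels as a block could be made, because each group holds 1 array.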
